A study of Mus musculus with 6 samples.

Results

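The transcripts of 10 fat cell genes were followed through whole sciatic nerves from Plekhg5-deficient mice and wild-type controls. They are Adipoq, Plin1, Fabp4, Cidec and Pparg, which white and brown adipocytes both use, Lep and Retn, which mark white adipocytes, and Ucp1, Cidea and Plin5, which are prominent in brown adipocytes. The genes were chosen by name, and all 10 were found among the 39174 genes in the tables. The nerves came from adult animals, given as 12 months old in the text of the study, with 3 wild-type nerves numbered 2, 4 and 5 and 3 nerves of Plekhg5-/- mice numbered 2, 3 and 5. RNA was taken from each nerve right after dissection and made into mRNA libraries. The text of the study counts 3 animals per genotype, as many as the libraries, and the sources used here name neither strain background nor sex. Values are FPKM, that is fragments scaled to transcript length and to the mapped total, divided by a scaling factor per library, and are called levels below. The tables hold no counts, so that depth is unknown. Nerves lacking Plekhg5 are called deficient nerves below. Plekhg5 itself read 3.65 to 5.26 FPKM in the wild-type and 0.0521 to 0.141 FPKM in the deficient libraries.

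White adipocytes store triglyceride in 1 large droplet and secrete hormones such as leptin, whereas brown adipocytes hold many small droplets and burn fatty acids for heat through the mitochondrial uncoupling protein Ucp1. In a peripheral nerve, adipocytes lie mainly in the epineurium, the loose outer sheath, and not among the myelinated fibers. The amount of their RNA in a dissected nerve can therefore depend on the sheath and neighbouring tissue taken with it. How much of either was taken was not measured here. In such bulk samples fewer adipocytes and less RNA per adipocyte cannot be told apart.

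The promoters of 4 members are shown, chosen for how their levels kept together or parted between nerves. Adipoq and Retn kept the narrowest ratio, whereas Lep and Ucp1 each departed from them in different nerves. Each line gives the 250 bases before the RefSeq start (GRCm38.p6, the build of the tables), in the direction of transcription. Adipoq lies at chr16:23146286-23146535, Retn at chr8:3655520-3655769, Lep at chr6:29059971-29060220 and Ucp1 at chr8:83290098-83290347, all on the plus strand. Capitals mark exact matches to the motifs named after the sequences.
Adipoq: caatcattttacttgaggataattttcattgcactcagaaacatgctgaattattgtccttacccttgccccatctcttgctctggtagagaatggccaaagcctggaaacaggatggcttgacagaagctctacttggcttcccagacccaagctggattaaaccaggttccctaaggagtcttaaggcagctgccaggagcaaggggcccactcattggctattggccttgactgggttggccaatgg
Retn: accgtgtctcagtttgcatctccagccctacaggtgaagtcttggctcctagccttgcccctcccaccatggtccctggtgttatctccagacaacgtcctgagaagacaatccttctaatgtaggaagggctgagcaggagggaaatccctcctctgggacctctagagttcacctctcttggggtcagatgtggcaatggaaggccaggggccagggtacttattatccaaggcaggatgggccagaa
Lep: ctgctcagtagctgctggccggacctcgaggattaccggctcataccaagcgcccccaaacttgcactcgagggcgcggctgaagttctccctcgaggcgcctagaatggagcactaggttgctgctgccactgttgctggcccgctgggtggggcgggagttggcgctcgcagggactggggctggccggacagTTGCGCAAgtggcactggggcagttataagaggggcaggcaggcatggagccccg
Ucp1: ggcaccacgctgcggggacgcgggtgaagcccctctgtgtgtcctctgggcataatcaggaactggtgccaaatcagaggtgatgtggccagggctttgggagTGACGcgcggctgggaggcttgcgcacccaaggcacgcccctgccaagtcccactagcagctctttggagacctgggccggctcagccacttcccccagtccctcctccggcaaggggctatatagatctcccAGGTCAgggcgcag

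On both strands 5 motifs were searched: the TATA box TATAAA, the C/EBP site TTGCNNAA, the nuclear receptor half-site AGGTCA, direct repeat 1 of that half-site, which contains it, and the cyclic AMP half-site TGACG. They were found in 12.4%, 9.56%, 14.0%, 0.0335% and 17.8% of 32851 promoter windows of the same length. The Lep window held a C/EBP site, TTGCGCAA, whose first base lies at -55 from the start and which reads the same on either strand. The Ucp1 window held a TGACG at -147 and an AGGTCA at -14. None of the 5 motifs was matched in the Adipoq and Retn windows. Of the 10 members, 8 had an entry among these promoters. In entries not shown, C/EBP sites were also matched for Plin1, Cidec and Pparg, AGGTCA for Pparg and Plin5, and a TATA box for Pparg. Neither the C/EBP site nor AGGTCA was thus confined to Lep or Ucp1. A match is a description of the letters only, and enhancers farther upstream were not searched.

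Of the genes shared by all adipocytes, Adipoq and Fabp4 were similar in the 3 wild-type nerves and spread widely among the deficient nerves. Adipoq encodes adiponectin, a hormone made by adipocytes (chromosome 16 of GRCm38, 23146536 to 23158028). Its level was 348, 343 and 325 FPKM in wild-type animals 2, 4 and 5 and 248, 133 and 539 FPKM in deficient animals 2, 3 and 5. The deficient nerves thus lay on both sides of the narrow wild-type range, with means of 307 ± 209 against 338.4 ± 11.97 FPKM (SD, n = 3 each). On the log2 scale the genotypes differed by -0.37 (standard error 0.48), with an adjusted p of 0.980 from limma over all genes.

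Fabp4 encodes a fatty acid carrier of adipocytes that capillary endothelium also makes (chromosome 3, 10204347 to 10208576), and it was the most abundant member. Its level was 1111, 1237 and 1083 FPKM in wild-type animals 2, 4 and 5 and 1320, 375 and 3600 FPKM in deficient animals 2, 3 and 5. Deficient nerve 5 was 2.73 times the next nerve, and deficient nerve 3 was below every other. The genotypes overlapped, and the log2 fold change was 0.088 (standard error 0.77, adjusted p = 0.999 from limma). It is below 0 on the FPKM as deposited (-0.080), so that no direction was resolved.

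Pparg encodes the nuclear receptor that directs adipocyte formation and is also used by macrophages (chromosome 6, 115361221 to 115490401). Its level was 21.1, 30.6 and 20.7 FPKM in the wild-type nerves and 33.9, 14.8 and 46.6 FPKM in the deficient nerves, in the same order of animals. Again the deficient range enclosed the wild-type range (log2 fold change 0.26 with a standard error of 0.42, limma adjusted p = 0.980). The same enclosure was seen for 5 of the 10 members (Adipoq, Fabp4, Pparg, Retn and Plin5) and for 21.3% of all genes tested, and the reverse for 0 members and 14.3% of all genes.

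Cidec and Plin1 encode proteins of the lipid droplet surface, a droplet fusion protein and the perilipin that gates lipolysis. Cidec (chromosome 6, 113424634 to 113435760) was at 138, 284 and 126 FPKM in the wild-type nerves and at 102, 47.2 and 205 FPKM in the deficient nerves. Plin1 (chromosome 7, 79721164 to 79732776) was at 31.2, 35.4 and 26.2 FPKM in the wild-type nerves and at 25.4, 6.80 and 24.7 FPKM in the deficient nerves. Both were highest in wild-type nerve 4 and lowest in deficient nerve 3. For Plin1 the genotypes did not overlap, with deficient values all below wild-type values, but the closest pair, wild-type nerve 5 and deficient nerve 2, had overlapping 95% intervals (23.7 to 28.7 and 23.4 to 27.5 FPKM). The log2 fold change of Plin1 was -0.86 (standard error 0.48, adjusted p = 0.974 from limma), and that of Cidec, whose genotypes overlapped, -0.77 (standard error 0.57, the same adjusted p).

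**Figure D1:**
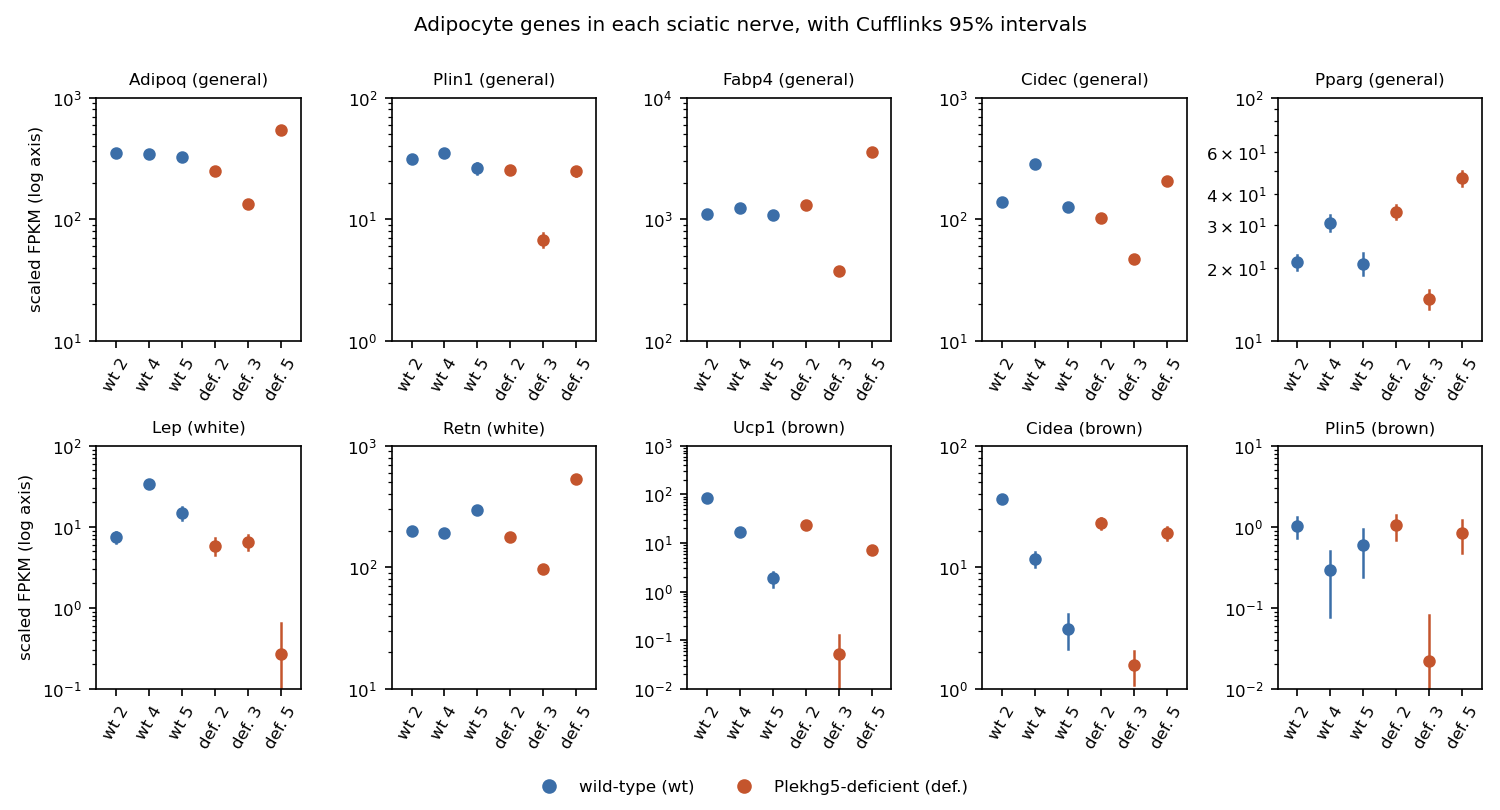
Level of the 10 adipocyte genes (scaled FPKM, log axes that differ between panels) in each sciatic nerve, 3 wild-type (wt) and 3 Plekhg5-deficient (def.). Points are single nerves and vertical lines the 95% intervals from Cufflinks, cut at the axis floor where they reach 0. Deficient nerve 3 is lowest for 9 of the 10 genes, and Lep is lowest in deficient nerve 5.

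The white adipocyte transcripts Retn and Lep differed in how they followed Adipoq. Retn encodes resistin, a hormone of rodent white adipocytes (chromosome 8, 3655770 to 3660110). Its level was 199, 190 and 296 FPKM in wild-type animals 2, 4 and 5 and 179, 96.6 and 532 FPKM in deficient animals 2, 3 and 5. Its level in each nerve was between 55.5% and 98.8% of that of Adipoq, a 1.78-fold range, the narrowest among the other 9 members. The genotypes overlapped (log2 fold change -0.095 with a standard error of 0.60, limma adjusted p = 0.999).

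Lep encodes leptin, the hormone by which white fat reports its stores (chromosome 6, 29060220 to 29073877). Its level was 7.44, 33.3 and 14.9 FPKM in wild-type animals 2, 4 and 5 and 5.86, 6.55 and 0.273 FPKM in deficient animals 2, 3 and 5. The genotypes did not overlap, the deficient values all being lower, although the 95% intervals of wild-type nerve 2 (6.33 to 8.55 FPKM) and deficient nerve 3 (5.25 to 7.86 FPKM) overlapped. Averages came to 18.6 ± 13.3 and 4.23 ± 3.44 FPKM (SD, n = 3 each), a 4.39-fold lower average in the deficient group. On the log2 scale the difference was -2.04 (standard error 0.81), for which Lep had an unadjusted p of 0.0408 and an adjusted p of 0.972 from limma. Lep and Ucp1 also stand in the study's list of genes chosen on these same libraries, so that their direction here is not independent evidence.

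Lep was nearly missing in the nerve with the most Adipoq. In deficient nerve 5 its 95% interval ran from 0 to 0.643 FPKM, where Adipoq and Retn were higher than in any other nerve. As a share of Adipoq, Lep was 2.14%, 9.73% and 4.60% in wild-type nerves 2, 4 and 5, 2.37% and 4.92% in deficient nerves 2 and 3, and 0.0506% in deficient nerve 5. The remaining deficient nerves thus lay within the wild-type range of this share. Without deficient nerve 5 the log2 fold change of Lep was -1.21, and without wild-type nerve 4 it was -1.52.

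Among the brown adipocyte transcripts was the member with the widest range, Ucp1. Ucp1 encodes the uncoupling protein that makes heat in brown adipocytes (chromosome 8, 83290348 to 83298456). Its level was 85.0, 16.9 and 1.88 FPKM in wild-type animals 2, 4 and 5 and 23.4, 0.0527 and 7.12 FPKM in deficient animals 2, 3 and 5. Wild-type nerve 2 was 3.63 times the next nerve, deficient nerve 2, and in deficient nerve 3 the 95% interval ran from 0 to 0.127 FPKM. The lower end of the interval in the highest nerve was 646 times the upper end in the lowest. The means, 34.6 ± 44.3 and 10.2 ± 11.99 FPKM (SD, n = 3 each), differed by less than the SD of the wild-type nerves (log2 fold change -1.47 with a standard error of 1.52, limma adjusted p = 0.974).

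Cidea encodes a lipid droplet protein that is abundant in brown adipocytes (chromosome 18, 67343564 to 67367794). Its level was 36.4, 11.8 and 3.13 FPKM in wild-type animals 2, 4 and 5 and 23.1, 1.56 and 19.2 FPKM in deficient animals 2, 3 and 5. Like Ucp1, it was highest in wild-type nerve 2, next in deficient nerve 2, and low in wild-type nerve 5 and lowest in deficient nerve 3. The range was narrower than that of Ucp1, so that the ratio of Ucp1 to Cidea was 2.33, 1.43 and 0.602 in the wild-type nerves and 1.01, 0.0337 and 0.370 in the deficient nerves. The log2 fold change of Cidea was -0.22 (standard error 1.09, adjusted p = 0.998 from limma).

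Plin5 encodes a perilipin that ties droplets to mitochondria in brown fat, heart and muscle (chromosome 17, 56111601 to 56117596). It was low throughout, at 1.02, 0.292 and 0.596 FPKM in the wild-type nerves and at 1.05, 0.0218 and 0.842 FPKM in the deficient nerves. The 95% intervals of the 3 highest nerves overlapped, and in deficient nerve 3 the interval began at 0. The log2 fold change was -0.038 (standard error 0.30, adjusted p = 0.999 from limma), on a scale that holds back changes of genes below 1 FPKM.

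Set against Adipoq in the same nerve, brown and white transcripts varied separately. Ucp1 was 24.4%, 4.92% and 0.580% of Adipoq in wild-type nerves 2, 4 and 5 and 9.46%, 0.0396% and 1.32% in deficient nerves 2, 3 and 5. Wild-type nerves 2 and 5 had nearly the same Adipoq, so that their Ucp1 differed at equal levels of a gene shared by all adipocytes. In wild-type nerve 2 Ucp1 exceeded Lep, and in wild-type nerve 5 Lep exceeded Ucp1. Ucp1 was also higher than Lep in deficient nerves 2 and 5 and lower in wild-type nerve 4 and deficient nerve 3, so that each order occurred in both genotypes.

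The question whether the balance of brown and white transcripts differed by genotype was put to 5 ratios to Adipoq, for Ucp1, Cidea, Plin5, Lep and Retn, each as log2 of FPKM + 1. The difference between genotypes, Plekhg5-deficient less wild-type, was -1.10 for Ucp1, 0.15 for Cidea, 0.33 for Plin5, -1.67 for Lep and 0.28 for Retn. None passed an exact two-sided permutation test over nerves (p between 0.3 and 0.9, adjusted p between 0.75 and 0.9 over the 5 ratios), which with 3 against 3 cannot go below 0.1. For Ucp1 the wild-type mean of -4.37 ± 2.40 and the Plekhg5-deficient mean of -5.47 ± 1.89 (SD, n = 3 each, log2 ratio) lay closer than the spread within genotypes.

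**Figure D2:**
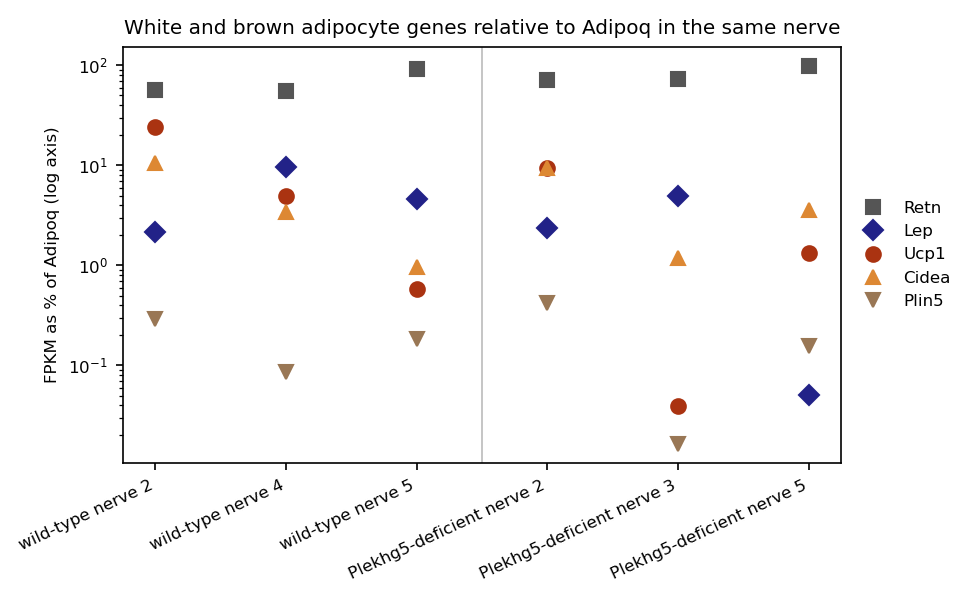
FPKM of Retn, Lep, Ucp1, Cidea and Plin5 as a percentage of Adipoq in the same nerve (log axis), by sciatic nerve, 3 wild-type and 3 Plekhg5-deficient. Symbols stand for 1 gene in 1 nerve. Retn stays between 55.5% and 98.8%, Ucp1 runs from 0.0396% to 24.4%, and Lep drops to 0.0506% in deficient nerve 5.

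Over the 10 members, 0 passed at an adjusted p under 0.05 from limma, where 0.0376% of the 21285 genes tested did (0.0094% lower and 0.0282% higher in deficient nerves). At an unadjusted p under 0.05 there was 1 member, Lep, against 5.11% of all genes in either direction and 2.69% in that of Lep. This p of Lep from limma was 0.140 without wild-type nerve 4, 0.101 without wild-type nerve 5 and 0.0857 without deficient nerve 5. The members at such a p were Lep and Pparg, the latter higher in deficient nerves, without deficient nerve 3, and Adipoq and Cidec, both lower, without deficient nerve 5. The genotypes did not overlap for 2 members, Plin1 and Lep, both lower in deficient nerves, against 5.88% of all genes in that direction and 11.6% in either. Without deficient nerve 3 Fabp4 and Pparg, both higher, joined them, where 19.7% of all genes did not overlap in either direction. Without deficient nerve 5 Adipoq, Cidec and Retn, all lower, joined them, where 24.2% of all genes did not overlap. The median log2 fold change was -0.37 for the 5 general, -1.07 for the 2 white and -0.22 for the 3 brown genes, beside 0.0065 over all genes tested. The 95% intervals of the fold changes were wide: that of Ucp1 ran from -5.09 to 2.15, that of Adipoq from -1.53 to 0.79, and that of Lep from -3.97 to -0.12. On the FPKM as deposited, which move the median of all genes to -0.094, 9 members were below 0, beside 8 here (48.9% of all genes).

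For 6 of the 10 members the direction turned when 1 nerve was left out. Without deficient nerve 3 the log2 fold change of Adipoq was 0.11, that of Fabp4 0.93, that of Cidea 0.82, that of Plin1 -0.28, that of Cidec -0.24 and that of Ucp1 -0.22. Without deficient nerve 5 all 10 members had a log2 fold change below 0, between -1.70 for Ucp1 and -0.07 for Pparg. Without wild-type nerve 2 the value of Ucp1 was -0.27, and without wild-type nerve 5 it was -2.72. With both nerves numbered 5 left out, a comparison added after the values were seen, all 10 were below 0, and 0 passed with limma.

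**Figure D3:**
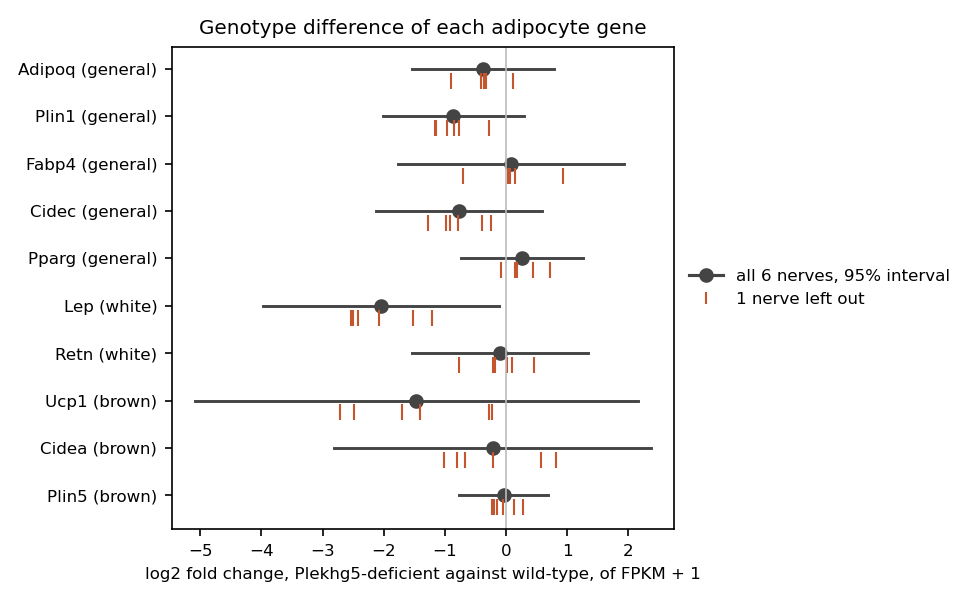
Log2 fold change of FPKM + 1 (Plekhg5-deficient against wild-type) of each adipocyte gene, from limma. Points and lines are the estimate and 95% interval over all 6 nerves, and ticks the estimates with 1 nerve left out. The interval of Lep alone lies below 0, and the ticks of Adipoq, Fabp4, Pparg, Retn, Cidea and Plin5 fall on both sides of 0.

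Single nerves recurred at the ends of the order. Deficient nerve 3 was lowest for 9 of the 10 members, and for 15.7% of all genes tested. Deficient nerve 5 was highest for 4 (Adipoq, Fabp4, Pparg and Retn) and for 22.6% of all genes. This rank is on scaled levels, and deficient nerve 5 had the lowest scaling factor (0.745). On the FPKM as deposited it stayed highest for Adipoq (401 against 383 FPKM in wild-type nerve 4), Fabp4 and Retn. Pparg was then highest in deficient nerve 2 (37.0 against 34.7 FPKM in deficient nerve 5). Wild-type nerve 2 was highest for 2 (Ucp1 and Cidea) and for 10.1% of all genes. Wild-type nerve 4 was highest for 3 (Plin1, Cidec and Lep) and deficient nerve 2 for 1 (Plin5). The 10 transcripts together made up between 0.0875% (deficient nerve 3) and 0.347% (deficient nerve 5) of the summed FPKM. Among the 9510 genes that averaged 5 FPKM or more, the standard deviation of log2(FPKM + 1) over the 6 nerves was larger for Ucp1 than for 99.4%, for Lep than for 97.3%, for Cidea than for 97.0% and for Adipoq than for 88.5%.

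Muscle, endothelial and erythroid transcripts were also mostly lowest in deficient nerve 3, whereas most macrophage, lymphoid, perineurial and myelin transcripts were not. The summed level of 12 skeletal muscle genes was 20616, 3274 and 14323 FPKM in wild-type animals 2, 4 and 5 and 2978, 381 and 54804 FPKM in deficient animals 2, 3 and 5, and 11 of the 12 were lowest in deficient nerve 3. The same nerve was lowest for 7 of 7 endothelial and 5 of 5 erythroid genes, for 1 of 5 macrophage and 1 of 4 perineurial genes, and for 0 of 7 Schwann cell myelin genes. Haemoglobin transcripts were 16.0% of the summed FPKM in deficient nerve 5 and at most 2.56% elsewhere, and the 8 T-cell and B-cell genes summed to 174 FPKM in wild-type nerve 5 and to at most 8.03 FPKM elsewhere. The part of muscle, blood or lymphoid tissue in the adipocyte values was not tested. In wild-type nerve 4, where Lep, Plin1 and Cidec were highest, muscle was lower than in the other wild-type nerves.

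The wider adipocyte program was read from lists by role. Of 77 genes in 9 lists, 76 could be tested, 0 passed with limma in either direction, 46 (60.5%) were lowest in deficient nerve 3 and 43 (56.6%) were highest in deficient nerve 5, against 15.7% and 22.6% of all genes. These ranks, and those of the single lists below, are on scaled levels. Deficient nerve 5 had the lowest scaling factor (0.745), and the ranks were not recounted on the FPKM as deposited. The median log2 fold change over the 76 was -0.11. At an unadjusted p under 0.05 there were 3 of the 76, Apln, Npr3 and Nnat, all lower in deficient nerves, against 2.69% of all genes in that direction and 5.11% in either. The genotypes did not overlap for 5 of the 76 (Apln, Gpam, Slc7a10, Npr3 and Nnat). All 5 were lower in deficient nerves, against 5.88% of all genes in that direction and 11.6% in either. Of 9 transcription factors of adipocyte formation, 3 were lowest in deficient nerve 3 and 4 highest in deficient nerve 5, with a median of -0.18.

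On scaled levels, lipid storage and release genes were mostly at their extremes in the nerves where Adipoq was. Pnpla2, the lipase that begins triglyceride breakdown, was at 207, 228 and 216 FPKM in the wild-type nerves and at 220, 107 and 365 FPKM in the deficient nerves. Cd36, a fatty acid transporter, was at 105, 137 and 91.9 FPKM and at 95.6, 42.3 and 169 FPKM in the same order. Of the 11 lipid droplet and lipolysis genes, 9 were lowest in deficient nerve 3 and 8 highest in deficient nerve 5, as were 6 and 6 of the 8 uptake genes. Their median log2 fold changes were -0.10 and -0.21.

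Lipid synthesis genes, which Schwann cells also use to build myelin, shared this order. Scd1, a fatty acid desaturase, was between 794 and 1081 FPKM in the wild-type nerves and at 815, 341 and 1826 FPKM in the deficient nerves. Fasn, the fatty acid synthase, was at 360, 230 and 92.2 FPKM in wild-type animals 2, 4 and 5 and at 240, 62.5 and 413 FPKM in deficient animals 2, 3 and 5. Within the wild-type nerves Fasn ran in the order of Ucp1, from nerve 2 to nerve 5. Of the 12 genes, 9 were lowest in deficient nerve 3 and 10 highest in deficient nerve 5, with a median log2 fold change of -0.028.

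Other secreted products were mostly lowest in deficient nerve 3. Cfd encodes adipsin, a complement protease of adipocytes, and was at 746, 345 and 1287 FPKM in the wild-type nerves and at 702, 275 and 1795 FPKM in the deficient nerves. Lpl, the lipase that frees fatty acids from lipoproteins, was highest in wild-type nerve 4 (263 FPKM) and lowest in deficient nerve 3 (27.9 FPKM), like Plin1 and Cidec. Of these 7 genes 6 were lowest in deficient nerve 3, with a median log2 fold change of -0.48.

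Of the further white adipocyte genes, 3 of the 5 tested were lowest in the nerve where Lep was lowest. Nnat, which encodes neuronatin and is also used by neurons, was at 67.5, 53.8 and 136 FPKM in wild-type animals 2, 4 and 5 and at 34.2, 42.0 and 7.05 FPKM in deficient animals 2, 3 and 5. Slc7a10, an amino acid transporter of white adipocytes, was at 11.4, 16.8 and 18.7 FPKM and at 8.57, 10.8 and 11.4 FPKM. Of the 5 genes tested on this list, 3 (Nnat, Npr3 and Mest) were lowest in deficient nerve 5, against 21.7% of all genes, and 1 in deficient nerve 3. Npr3 differed little among deficient nerves 2, 3 and 5 (2.22, 2.28 and 1.88 FPKM). Slc7a10 and Nnmt did not follow Lep, and among the deficient nerves both were highest in nerve 5 (11.4 and 23.4 FPKM). Deficient nerve 5 was also lowest for 4 of 7 Schwann cell myelin genes. On this list 3 genes (Slc7a10, Npr3 and Nnat) had no overlap between genotypes, lower in deficient nerves, against 5.88% of all genes in that direction. These 3 are among the 5 without overlap in the 76 genes of the wider lists. The median log2 fold change was -0.72, and 0 passed with limma.

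The 12 further brown adipocyte genes grouped here as rare in muscle, a grouping that was not checked, were low in every nerve. Among them the highest mean was that of Kng2, at 3.97 FPKM. Elovl3, a fatty acid elongase of brown fat, was at 1.89, 0.124 and 0.194 FPKM in wild-type animals 2, 4 and 5 and at 1.14, 0.0230 and 2.13 FPKM in deficient animals 2, 3 and 5, and Prdm16, a regulator of brown fat identity, was between 1.26 and 3.85 FPKM. Of the 12, 5 were highest in wild-type nerve 2 and 6 lowest in deficient nerve 3, against 10.1% and 15.7% of all genes. Several of the 12 averaged below 1 FPKM, so that their order of nerves lies near the floor. Of the 8 brown genes that muscle also uses, the most abundant was Cox8b. This subunit of cytochrome oxidase was at 378, 102 and 371 FPKM in the wild-type nerves and at 170, 12.9 and 677 FPKM in the deficient nerves. Cox8b was thus low in wild-type nerve 4 and high in wild-type nerve 5, like the muscle genes and unlike Ucp1. The medians were -0.014 and -0.37.

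**Figure D4:**
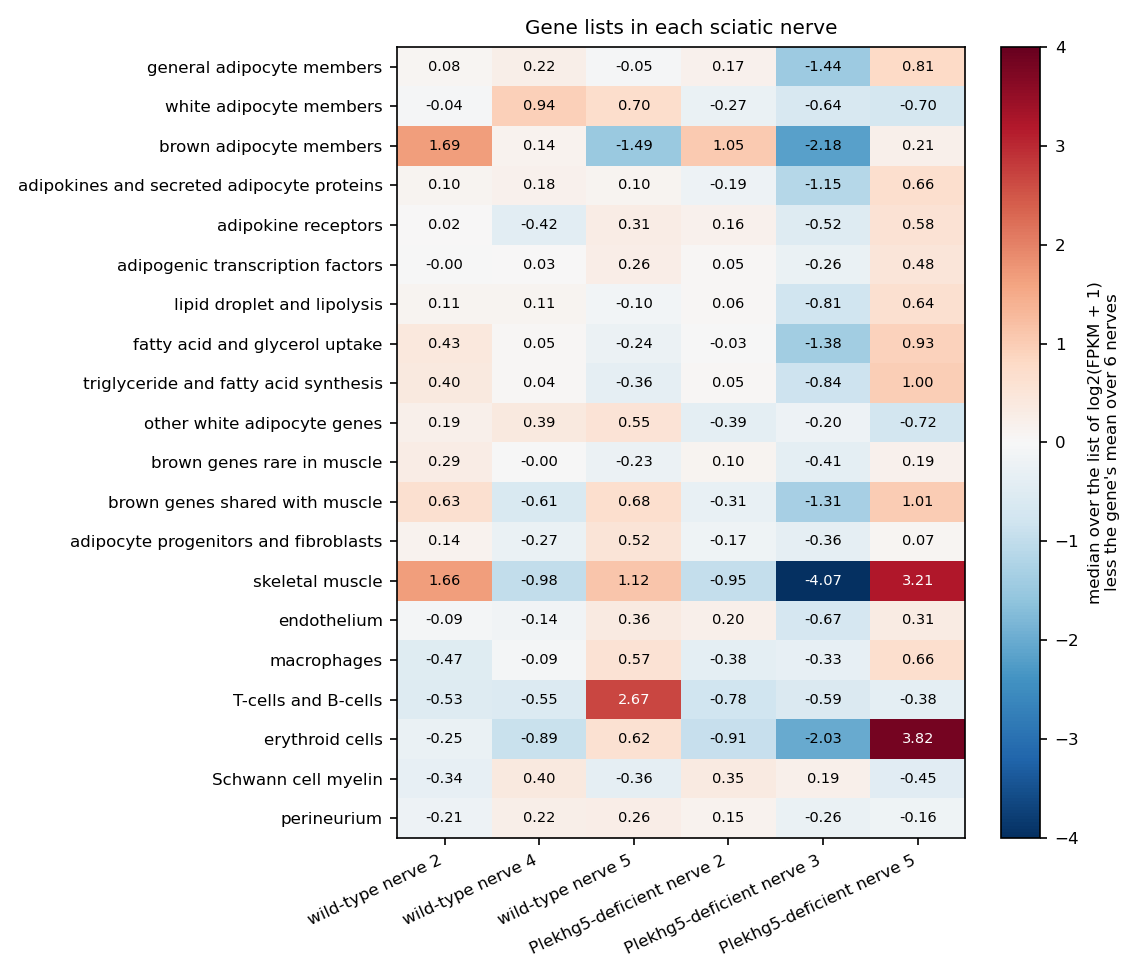
Median over each gene list of log2(FPKM + 1), less the mean of the gene over 6 nerves, by sciatic nerve (3 wild-type, 3 Plekhg5-deficient). Red is above and blue below the mean, and the numbers give the values. The general adipocyte genes are at -1.44 in deficient nerve 3 and the brown genes at 1.69 in wild-type nerve 2, while skeletal muscle runs from -4.07 to 3.21.

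Genes with the most similar course over the 6 nerves were sought by the root mean square distance of centred log2(FPKM + 1). Nearest to Adipoq was Ucp3, an uncoupling protein of muscle and brown fat (distance 0.048), at 5.50, 5.05 and 5.05 FPKM in the wild-type nerves and at 3.46, 1.503 and 9.54 FPKM in the deficient nerves. Because 1 was added before the logarithm, the range of a gene as low as Ucp3 is narrowed. The distance of Ucp3 is therefore not directly comparable with those of more abundant genes. Mknk2, Ppp2r5a, Chpt1, Mrap and Nme2 followed at distances between 0.136 and 0.168. Mrap, an accessory protein of the melanocortin receptor made in adipocytes, was between 41.1 and 48.7 FPKM in the wild-type nerves and at 41.3, 17.1 and 82.0 FPKM in the deficient nerves. Among members, Retn was nearest to Adipoq (0.31) and Ucp1 farthest (1.85). The distance of Ucp1 is large in part because its range is wide.

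Lep and Ucp1 had no neighbours at such small distances. The distance is not divided by the spread of a gene and so grows with it. The standard deviation of log2(FPKM + 1) was 0.67 for Adipoq, 1.58 for Lep and 2.27 for Ucp1. Distances to these genes are therefore not directly comparable, and larger ones do not show a more unusual course. The 6 genes nearest to Lep were Gm15551, Rab3b, Sst, Serpind1, Pla2g5 and Nnat, at distances between 0.544 and 0.810, closer than any other member (1.48 or more). Rab3b, a vesicle GTPase, was at 16.8, 16.3 and 13.6 FPKM in the wild-type nerves and at 4.80, 8.16 and 1.45 FPKM in the deficient nerves. The 6 nearest to Ucp1 were Fasn, Adrb3, Gbp2, Gpd1, Alb and Them5, at distances between 1.37 and 1.56, all farther than Cidea (0.91). Adrb3, the adrenergic receptor through which adipocytes receive sympathetic signals, was at 10.8, 7.01 and 4.17 FPKM in wild-type animals 2, 4 and 5 and at 5.89, 1.28 and 6.39 FPKM in deficient animals 2, 3 and 5. The distances describe 6 libraries that share tissue and handling, and carry no test.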

How the data were processed

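Sciatic nerve mRNA was sequenced in 3 wild-type and 3 Plekhg5-/- libraries. The authors trimmed reads with Trim Galore 0.4.0, mapped them to GRCm38 with STAR and estimated FPKM with 95% intervals per gene and library with Cufflinks 2.2.1. The deposited FPKM come without counts, and no source used here gives their annotation release or strand setting. Sums were taken for 19 identifiers listed more than once. Each library was then divided by its median-of-ratios factor (0.745 to 1.12). For the 21285 genes whose mean reached 0.1 FPKM in a genotype, log2(FPKM + 1) was fitted on genotype in limma 3.58.1 (R 4.3.3) with a mean-variance trend, and p-values were adjusted by Benjamini-Hochberg. The fit was tested on simulated data. Such fold changes understate the change of low genes.

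The 10 members and the lists of 142 genes were chosen with earlier results of these data known. Named are the members, genes among the 4 highest of a list, the 6 genes nearest to Adipoq, Lep and Ucp1 with a mean of at least 5 FPKM, and, after their values were seen, Apln, Npr3, Elovl3, Dpp4, Zfp423 and genes without overlap. Of the list symbols, 2 were matched by identifier. Coordinates are from the tables, and promoters from RefSeq. Alternatives were no scaling, upper quartile scaling, a pseudocount of 0.1, a minimum of 1 FPKM or none, no variance trend, a replicate block and leaving out libraries. Figures were drawn with matplotlib 3.10.9.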

Additional observations from a re-analysis of the deposited data

How the results depend on the processing

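The 10 members gave 0 calls at an adjusted p under 0.05 under each alternative run, and Lep, Plin1 and Ucp1 kept a log2 fold change below 0 in each. Over all genes, 2 lower and 6 higher calls became 1 lower with a pseudocount of 0.1 or a minimum of 1 FPKM, 0 lower and 2 higher with no filter, and 0 and 0 with both libraries numbered 5 left out. Leaving out 1 library gave 0 lower and 0 to 4 higher calls. Plekhg5 itself was not called with 1 library or both libraries numbered 5 left out, with no filter or under the block, at log2 fold changes of -2.35 to -2.10. At an unadjusted p under 0.05 there were 0 members with a pseudocount of 0.1 or no filter, where Lep had a p of 0.0574 and 0.0613 from limma. Plin5 was not tested at a minimum of 1 FPKM.

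With 1 library left out, the log2 fold change ran from -0.89 to 0.11 for Adipoq, -1.16 to -0.28 for Plin1, -1.28 to -0.24 for Cidec, -0.70 to 0.93 for Fabp4, -0.075 to 0.72 for Pparg, -0.77 to 0.46 for Retn, -1.02 to 0.82 for Cidea and -0.23 to 0.27 for Plin5. The log2 ratio to Adipoq ran from -2.32 to 0.078 for Ucp1, from -0.62 to 0.92 for Cidea and from -2.61 (without deficient nerve 3) to -0.32 (without deficient nerve 5) for Lep. List medians ran from -0.89 to 0.11 for general adipocyte members, -1.02 to 0.27 for brown adipocyte members, -0.16 to 0.40 for adipokine receptors, -0.26 to 0.038 for adipogenic transcription factors, -0.41 to 0.20 for lipid droplet and lipolysis, -0.75 to 0.25 for fatty acid and glycerol uptake, -0.27 to 0.51 for triglyceride and fatty acid synthesis, -1.04 to -0.70 for other white adipocyte genes, -0.14 to 0.18 for brown genes rare in muscle and -1.07 to 0.12 for brown genes shared with muscle. Fabp4 was at -0.080 on FPKM as deposited. Without both libraries numbered 5, Fabp4 was at -0.73, Pparg at -0.17 and the Cidea ratio at -0.55. The Plin5 ratio was -0.031 with a pseudocount of 0.1. The cause of these changes was not tested.

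Numbers 2 and 5 occur in both genotypes, but nothing says that they pair animals. Deviations of same-numbered libraries correlated at 0.089 (number 2) and 0.64 (number 5). Those of differently numbered libraries ran from -0.62 (wild-type 4 with deficient 5) to 0.58 (wild-type 4 with deficient 2), so that the correlations do not settle pairing. A replicate block gave 0 lower and 0 higher calls and turned Adipoq to 0.12, Cidec to 0.13, Retn to 0.34, Cidea to 0.83 and Plin5 to 0.11. Without counts, the limit that depth sets is unknown beyond the Cufflinks intervals.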

Other observations

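Receptors for the hormones of fat cells were present in all 6 nerves. Adipor1, a receptor for adiponectin, was at 61.4, 53.7 and 54.3 FPKM in wild-type animals 2, 4 and 5 and at 53.4, 55.6 and 80.1 FPKM in deficient animals 2, 3 and 5, a narrower range than the 4.05-fold of Adipoq. Adipor2 lay between 29.2 and 70.2 FPKM. Cdh13, a cadherin that binds adiponectin, was at 16.2, 8.40 and 25.7 FPKM in the wild-type nerves and at 17.7, 8.24 and 31.0 FPKM in the deficient nerves. Lepr, the leptin receptor, was highest in wild-type nerve 5 (8.38 FPKM) and lay between 2.29 and 5.09 FPKM in the other nerves. Of the 4 receptors 0 passed with limma (0 at an unadjusted p under 0.05), and the median log2 fold change was 0.13.

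Of 7 markers of adipocyte progenitors and fibroblasts, 4 (Dpp4, Pi16, Zfp423 and Cd34) were lowest in deficient nerve 3, against 15.7% of all genes. Pdgfra, a growth factor receptor of these cells, was between 9.14 and 15.1 FPKM, a 1.65-fold range. Pi16, a marker of adventitial fibroblasts, was highest in wild-type nerve 5 (54.8 FPKM) and lay between 10.1 and 27.0 FPKM elsewhere. Of the 7 genes 0 passed with limma, with a median log2 fold change of -0.25.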
